A study of Mus musculus with 2 samples.

Results

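The collagen chains are the genes whose symbol has the form Col, a type number, the letter a and a chain number. By that rule 44 of 55363 mouse genes were found, and no 2 rows of the files shared a member's symbol. They were compared in whole uterus of 2 mouse genotypes, Mettl14f/f and Mettl14d/d, which in the usual notation stand for floxed and deleted alleles. Females of 6 to 8 weeks were mated with fertile males and the uterus was taken on gestational day 4, around the time of embryo attachment, with the plug day counted as day 1. Mettl14 encodes a subunit of the methyltransferase that places N6-methyladenosine (m6A) on RNA. The series holds 1 library per genotype, so there is no replicate error, no test and no p-value below and no statement on the genotypes beyond these libraries. What drove the deletion, and whether a library is 1 animal or a pool, are not stated in the sources used here.

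Collagens are secreted or membrane proteins whose chains coil into a triple helix and then build fibrils, networks or filaments. Fibrillar types I, III and V carry the tensile strength of the uterine stroma and muscle wall. Type IV forms the sheet under epithelium and around vessels and muscle cells, type VI forms beaded filaments next to that sheet, and FACIT collagens (fibril-associated collagens with interrupted triple helices) decorate fibrils. In the mouse the uterine stroma is known to remodel its collagen fibrils around implantation as stromal cells become decidual cells.

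Values are FPKM, which scale fragments by the length of the gene model and by the mapped fragments of the library, so levels of different chains can be set beside each other per length. Ratios are d/d over f/f on the log2(FPKM + 1) scale, which understates the difference of low genes. Higher and lower mean a ratio of at least 1 in size, a 2-fold difference, and a gene is called measured when it reached 1 FPKM in at least one library. Depth was about 17800000 fragments in f/f against 20750000 in d/d, as read from the finest steps in the deposited values. Mettl14 itself was 13.6 FPKM in f/f against 3.21 in d/d. In bulk tissue, fewer cells of a type and less RNA per cell cannot be told apart.

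Some upstream sequences are shown first, those of a collagen IV pair whose starts lie close together and those of the collagen VI chains, whose 5 measured members all had higher FPKM in d/d. Positions are on GRCm38 (mm10) from GENCODE M21 and the letters are RefSeq's for GRCm38.p6, 5′ to 3′, in lower case. Capitals mark a GC box (GGGCGG, or CCGCCC on the other strand), a CCAAT box (CCAAT, or ATTGG) or a TATA box (TATAAA, or TTTATA). Col4a3 and Col4a4 lie head to head on chromosome 1 with 71 bases between their starts, at chr1:82586850-82586920, and the stretch on the plus strand holds none of these letters.
Between Col4a4 and Col4a3: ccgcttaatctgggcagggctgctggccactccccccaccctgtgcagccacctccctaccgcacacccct

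For collagen VI the 120 bases before each annotated start are given on the minus strand, the strand of all 6 genes. Col6a1 and Col6a2 are neighbours on chromosome 10 (chr10:76726169-76726288 and chr10:76623631-76623750), Col6a3 is on chromosome 1 (chr1:90843972-90844091), and Col6a4, Col6a5 and Col6a6 follow one another on chromosome 9 (chr9:106096784-106096903, chr9:105960644-105960763 and chr9:105828161-105828280).
Col6a1: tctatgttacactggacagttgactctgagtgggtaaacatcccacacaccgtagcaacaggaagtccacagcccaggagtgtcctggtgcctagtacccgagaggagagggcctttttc
Col6a2: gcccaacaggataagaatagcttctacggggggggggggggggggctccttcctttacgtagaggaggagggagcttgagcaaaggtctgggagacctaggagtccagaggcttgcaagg
Col6a3: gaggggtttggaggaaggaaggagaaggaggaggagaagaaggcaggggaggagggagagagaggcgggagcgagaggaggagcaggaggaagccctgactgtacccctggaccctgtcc
Col6a4: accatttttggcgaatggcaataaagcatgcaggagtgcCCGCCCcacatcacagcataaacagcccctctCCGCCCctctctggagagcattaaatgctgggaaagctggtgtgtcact
Col6a5: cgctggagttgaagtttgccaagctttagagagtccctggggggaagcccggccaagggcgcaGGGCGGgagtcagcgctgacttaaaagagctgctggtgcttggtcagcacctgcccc
Col6a6: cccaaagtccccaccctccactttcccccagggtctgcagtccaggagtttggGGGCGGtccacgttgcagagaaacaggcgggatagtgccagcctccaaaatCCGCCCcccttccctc

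In these windows the GC box occurred upstream of Col6a4, Col6a5 and Col6a6 and not upstream of Col6a1, Col6a2 or Col6a3, although Col6a2 held one in the longer window described next. Such a match is a description of letters and not a binding site. Over the longer RefSeq windows of 300 bases (250 before a start and 50 after it), 35 members had an entry, and 22 of them held a GC box, against 35.7% of all 32851 promoter windows. Here and below, a member counted once if any of its windows held the letters, whereas the shares of all are per window. A gene with more windows has more chances of a match, so the units differ and no excess is read from them. A CCAAT box was found in 13 of the 35 members against 37.4% of all windows, and a TATA box in 5 against 13.6%. The half-site letters TGTTCT or AGAACA, bound by the progesterone receptor, occurred in 2 of the 35 members (Col9a1 and Col20a1) against 19% of all windows. None of the letter strings searched contains another. The estrogen receptor half-site GGTCA or TGACC occurred in 14 members against 40.5%.

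The summed collagen level was nearly the same in both libraries while its make-up differed. All 44 chains summed to 5459 FPKM in f/f against 5387 in d/d, which is 0.426% and 0.419% of all FPKM. Of that sum the fibrillar chains held 65.1% in f/f against 51.8% in d/d, whereas the collagen VI chains held 17.6% and 38.0%. Basement membrane chains took 8.96% and 6.88%, multiplexins 4.44% and 1.23%, and FACIT chains 3.43% and 1.71%. Collagen VI thus stood at 0.271 of the fibrillar sum in f/f and at 0.734 of it in d/d.

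**Figure D1:**
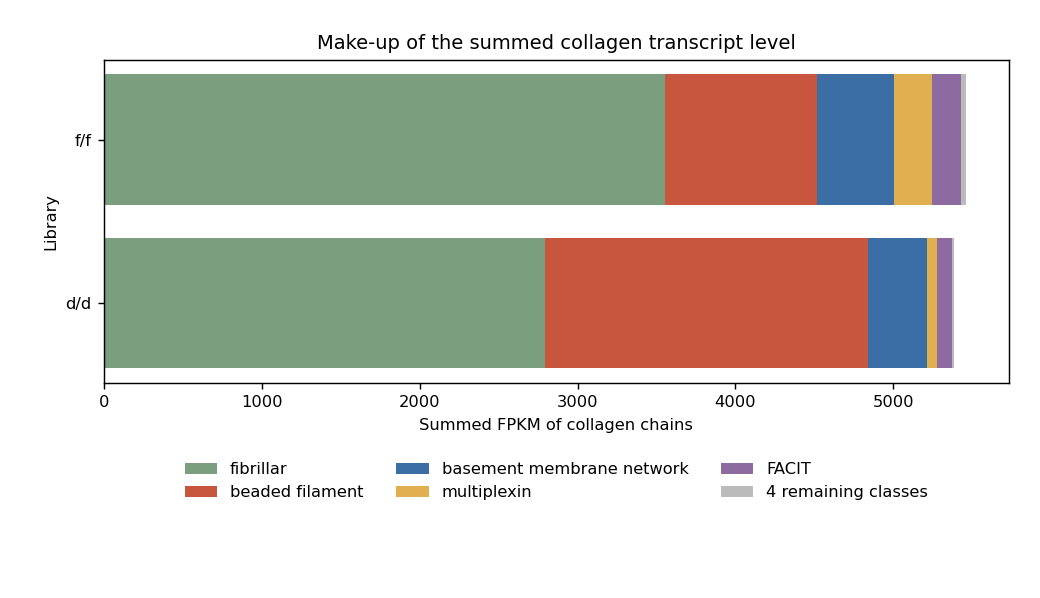
Summed FPKM of the collagen chains (horizontal axis) in the f/f and the d/d library, 1 bar per library, coloured by collagen class. The bars end at 5459 and 5387 FPKM, and the beaded filament (collagen VI) segment is 962 FPKM in f/f against 2050 in d/d.

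Of the 44 chains, 34 were measured and 10 stayed under 1 FPKM in both libraries. Among the 34, 8 were higher in d/d by the 2-fold rule, 10 were lower and 16 were neither. Over all 16263 genes measured, 10.2% were higher and 8.28% lower, together 18.4%, whereas 18 of the 34 chains (52.9%) lay past 2-fold. The median ratio of the chains was -0.25 and that of all genes -0.01. A chain that reached 1 FPKM in 1 library alone tends to differ by that fact, and 3 passed through f/f alone and 6 through d/d alone. Of the 25 chains at 1 FPKM or more in both libraries, 4 were higher and 7 lower, where among all 14370 such genes 7.93% were higher and 5.78% lower. The calls nearest to 2-fold were those of Col5a3 (1.05), Col7a1 (-1.06) and Col6a2 (1.08), and just short of it lay Col5a1 (0.97) and Col20a1 (0.96). With a pseudocount of 5 FPKM, which shrinks low genes, 5 chains were higher and 5 lower, and the shares of all genes were 5.34% and 3.31%.

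**Figure D2:**
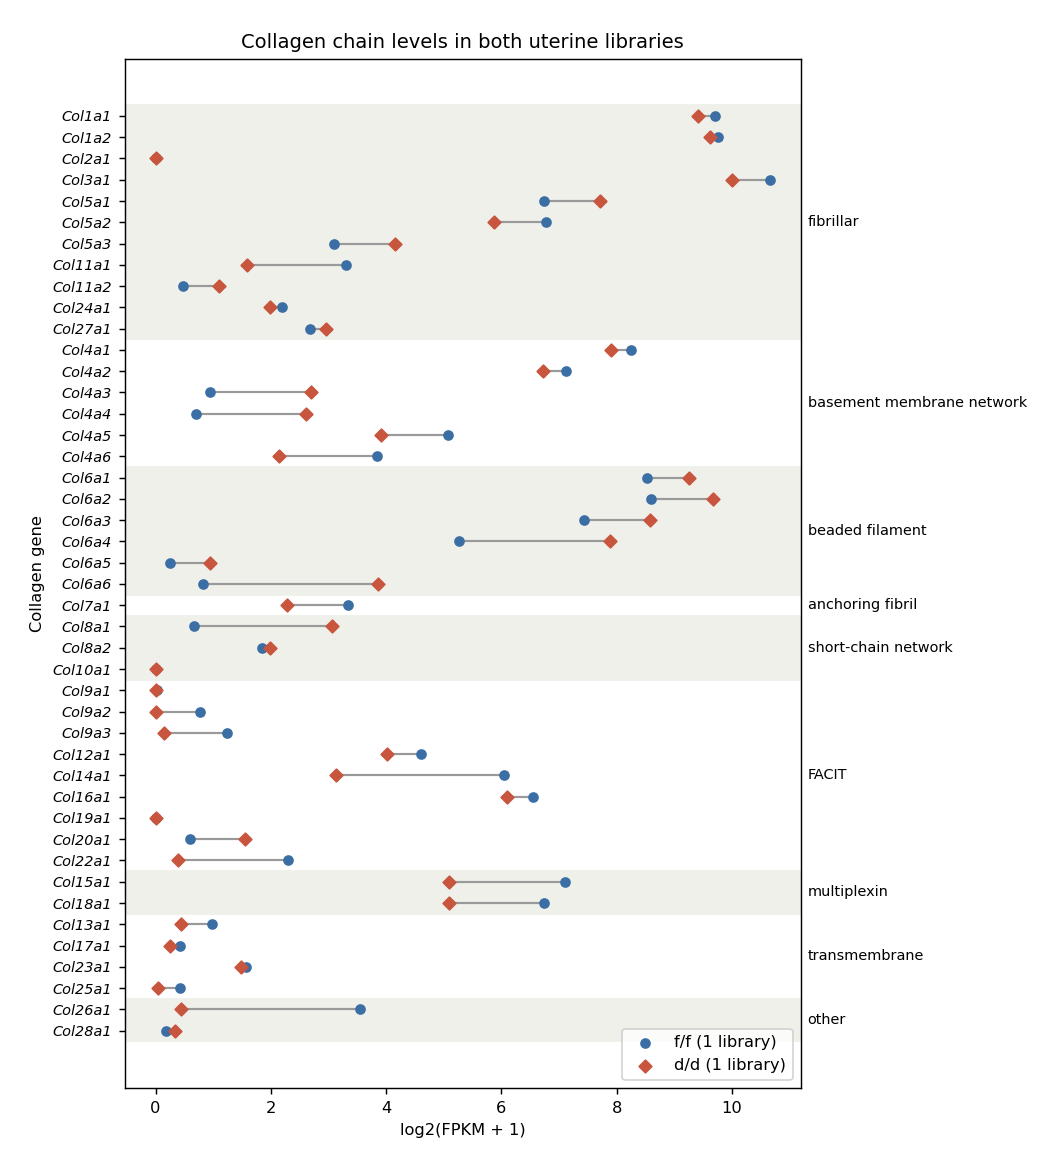
Level of each of the 44 chains as log2(FPKM + 1) (horizontal axis), with a circle for the f/f library and a diamond for the d/d library, grouped by class. The diamonds lie to the right of the circles for all 6 collagen VI chains and to the left for Col15a1 and Col18a1.

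The chains of types I and III, the most abundant fibrillar ones, had ratios below 0 that stayed within 2-fold. Col3a1, the chain of the type III fibrils of distensible tissue, was the highest collagen in both libraries at 1616 FPKM in f/f against 1026 in d/d (ratio -0.66). Col1a1 was 837 and 682 FPKM (-0.29) and Col1a2, its partner in type I collagen, was 859 and 787 (-0.13). The level of Col1a1 was 0.974 times that of Col1a2 in f/f and 0.867 times in d/d. Type I chains together stood at 1.05 times the level of Col3a1 in f/f and at 1.43 times in d/d.

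Collagen V, which nucleates fibrils and limits their width, went both ways. Col5a1 was 106 FPKM in f/f against 209 in d/d, while its usual partner Col5a2 was 108 and 57.7. The pair was thus near equal in f/f, with Col5a1 at 0.981 times Col5a2, and stood at 3.62 times Col5a2 in d/d. Neither chain passed 2-fold on the scale used, with ratios of 0.97 and -0.89. Col5a3, the least abundant chain of the type, was 7.59 and 16.8 FPKM and counted as higher (1.05). Col5a2 lies tail to tail with Col3a1 on chromosome 1, 24614 bases apart, and both had ratios below 0.

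Lower among the fibrillar genes was Col11a1 alone, the cartilage-type chain that can join type V fibrils, at 8.83 FPKM in f/f against 2.02 in d/d (a 4.37-fold lower level, ratio -1.70). Its partner Col11a2 was 0.399 and 1.15 FPKM, so that Col11a1 stood at 22.1 times Col11a2 in f/f and at 1.76 times in d/d. The minor fibrillar chains Col24a1, at 3.57 and 2.96 FPKM, and Col27a1, at 5.40 and 6.72, did not pass 2-fold. Col2a1, the main cartilage collagen, was 0.0110 FPKM in f/f, about 1 fragment, and listed at 0 in d/d. The 11 fibrillar chains summed to 3552 FPKM in f/f against 2791 in d/d (-0.35).

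Collagen IV chains separated by gene pair. Each pair lies head to head, and the partners of each pair went the same way. Col4a1 and Col4a2, which make the basement membrane network found in nearly all tissues, were 303 and 139 FPKM in f/f and 238 and 105 in d/d. Their ratios were -0.35 and -0.40, and Col4a1 stood at 2.18 times Col4a2 in f/f and 2.26 times in d/d. Annotated exons of these genes overlap by 22 bases on chromosome 8 (Col4a1 from 11198423 to 11312826 on the minus strand, Col4a2 from 11312805 to 11449287 on the plus strand).

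Col4a3 and Col4a4, chains of the specialised network best known from the kidney glomerulus, were the higher pair. Col4a3 was 0.936 FPKM in f/f against 5.45 in d/d, a 5.83-fold higher level with a ratio of 1.74. Col4a4 was 0.636 and 5.14 FPKM, 8.07-fold higher with a ratio of 1.91. These are the genes divided by the 71 bases printed above, with Col4a4 from 82448423 to 82586849 and Col4a3 from 82586921 to 82722059. At the estimated depth their f/f values stand for about 142 and 114 fragments and their d/d values for about 968 and 1080. Both were under 1 FPKM in f/f and were measured through d/d alone. Their sum was 0.00356 of the Col4a1 and Col4a2 sum in f/f and 0.0309 of it in d/d, so the pair was a small part of collagen IV FPKM in both libraries. With a pseudocount of 5 FPKM their ratios were 0.82 and 0.85, short of 2-fold.

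Col4a5 and Col4a6, the X-linked chains whose network is known around smooth muscle, were the lower pair. Col4a5 was 32.8 FPKM in f/f against 14.0 in d/d (ratio -1.17). Col4a6 was 13.3 and 3.41 FPKM (-1.69). Their starts lie 1308 bases apart on chromosome X, and Col4a5 stood at 2.47 times Col4a6 in f/f and 4.10 times in d/d. Col4a5 can join both other collagen IV networks, and its level exceeded those of Col4a3 and Col4a4 in both libraries.

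All 6 collagen VI chains had higher FPKM in d/d, and of the 5 measured 4 passed 2-fold (80%, beside 10.2% of all genes measured). Among these 4, Col6a6 was under 1 FPKM in f/f and was measured through d/d alone, so that its call is tied to the minimum. Col6a1, Col6a2 and Col6a3 form the common trimer. Col6a2 was 384 FPKM in f/f against 812 in d/d (ratio 1.08). Col6a3 was 172 and 382 FPKM (1.14). Col6a1 was 367 and 607 FPKM (0.72), short of 2-fold. By level Col6a2 ranked number 4 of all 44 collagens in f/f and number 2 in d/d. The class summed to 962 FPKM in f/f against 2050 in d/d, a ratio of 1.09. Scaled by the upper quartile of all measured genes, Col6a2 (0.98) and the class sum (0.99) lay just short of 2-fold. Col6a1 stood at 0.955 times Col6a2 in f/f and 0.748 times in d/d.

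The larger differences were in the chains that can take the place of Col6a3. Col6a4 was 37.3 FPKM in f/f against 235 in d/d, a 6.30-fold higher level with a ratio of 2.62. Col6a6 was 0.765 and 13.4 FPKM, 17.6-fold higher with a ratio of 3.03, the highest ratio of any chain, and 98.99% of all genes measured had a lower one. Col6a5, which lies between them, was 0.196 and 0.914 FPKM and stayed under the minimum, with 4.66 times the level in d/d. The cluster spans chromosome 9 from 105687809, the end of Col6a6, to 106096783, the start of Col6a4. Col6a4 made up 3.88% of collagen VI FPKM in f/f against 11.5% in d/d. The f/f values of Col6a6 and Col6a5 stand for about 120 and 32.4 fragments, and the d/d values for about 2450 and 176.

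Position did not go with direction everywhere. Col18a1 lies on chromosome 10 at a distance of 326009 bases from Col6a1 and was lower in d/d, whereas Col6a1 and Col6a2 had ratios above 0.

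**Figure D3:**
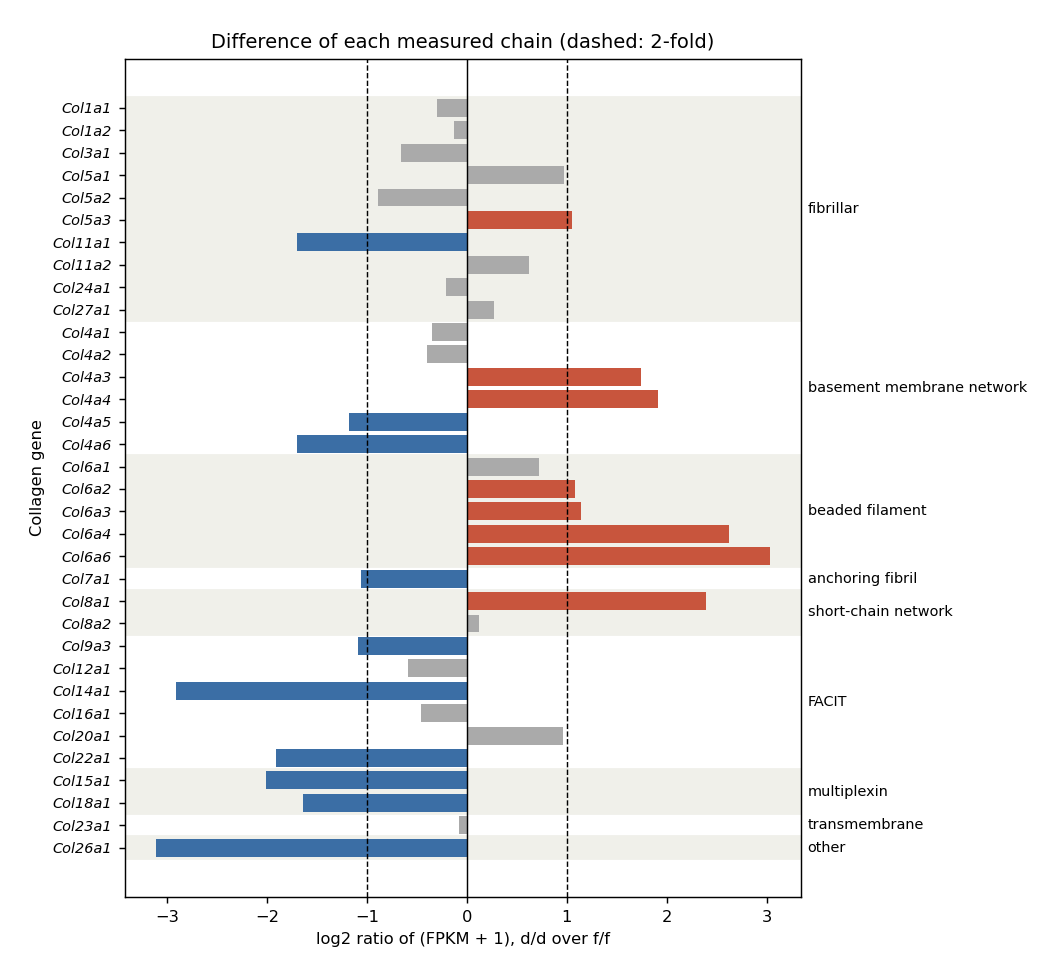
Log2 ratio of (FPKM + 1), d/d over f/f (horizontal axis), of the 34 measured chains by class, with dashed lines at 2-fold, red bars for higher and blue bars for lower chains and grey bars for neither. Bars of collagen VI and of Col4a3, Col4a4 and Col8a1 point right, and those of Col14a1, Col15a1, Col18a1 and Col26a1 point left.

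The multiplexins, basement membrane collagens that also carry sugar chains, were both lower. Col15a1, which links basement membranes to the fibrils beneath, was 137 FPKM in f/f against 33.1 in d/d, a 4.12-fold lower level with a ratio of -2.01. Col18a1, the source of the fragment endostatin, was 106 and 33.2 FPKM, 3.18-fold lower with a ratio of -1.64. In f/f Col15a1 ranked number 9 of all collagens by level. Even in d/d about 3560 and 3850 fragments lie behind these values.

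No FACIT chain was higher by 2-fold and 3 of 6 measured were lower (50%, beside 8.28% of all genes measured). Of these, Col22a1 and Col9a3 were under 1 FPKM in d/d and were measured through f/f alone, so that their calls are tied to the minimum. Col14a1 was the lower chain that reached 1 FPKM in both libraries. Col14a1, which sits on the surface of type I fibrils and limits their lateral growth, was 64.7 FPKM in f/f against 7.78 in d/d. That is an 8.32-fold lower level with a ratio of -2.90, and 0.806% of all genes measured had a lower one. Its close relative Col12a1 was 23.2 and 15.1 FPKM (-0.59). Col16a1, the most abundant of the class, was 92.6 and 67.0 FPKM (-0.46). The ratio of Col14a1 was the lowest of the 6 measured FACIT chains.

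Fewer fragments lie behind the remaining FACIT chains. Col22a1, known from muscle-tendon junctions, was 3.93 FPKM in f/f against 0.316 in d/d (-1.91), about 616 and 57.8 fragments. Col9a3, a chain of the cartilage FACIT type IX, was 1.35 and 0.102 FPKM (-1.09), about 73.2 and 6.45 fragments. Col9a2 was 0.711 FPKM in f/f and 0 (listed) in d/d, and Col9a1 was 0.0182 and listed at 0. Col20a1 was the one measured FACIT chain with a ratio above 0, at 0.508 and 1.94 FPKM. An overlapping gene model on its strand, BX649560.1, was 2.58 and 2.33 FPKM, and how fragments were shared between these models is not known. Col19a1 was listed at 0 in both libraries.

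The short-chain network type VIII, known from vessel walls and the cornea, was split. Col8a1 was 0.583 FPKM in f/f against 7.30 in d/d, a 12.5-fold higher level with a ratio of 2.39. Col8a2 was 2.62 and 2.95 FPKM (0.13). Col8a1 was thus below Col8a2 in f/f, at 0.223 times its level, and above it in d/d, at 2.48 times. About 53 fragments lie behind the f/f value of Col8a1 and about 774 behind its d/d value. Col8a1 was under 1 FPKM in f/f and was measured through d/d alone. Col10a1, the collagen of hypertrophic cartilage, was listed at 0 in both libraries.

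Col7a1, which forms the fibrils that anchor squamous epithelium, was 9.17 FPKM in f/f against 3.88 in d/d (-1.06). Col26a1, a small secreted collagen first described in testis and ovary, was 10.7 and 0.357 FPKM. With a ratio of -3.11 it had the lowest ratio of all chains, a 30.1-fold lower level, and about 20.6 fragments lie behind the d/d value. Col26a1 too was measured through f/f alone. The other chain of that group, Col28a1, was 0.141 and 0.267 FPKM.

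Transmembrane collagens were scarce in both libraries. Col23a1 was the one measured, at 1.95 and 1.79 FPKM (-0.08). Col13a1 was 0.973 and 0.365 FPKM, Col17a1, the collagen of hemidesmosomes, was 0.349 and 0.194, and Col25a1 was 0.338 and 0.0336. All 4 had lower FPKM in d/d, and the class summed to 3.61 FPKM in f/f against 2.38 in d/d.

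Genes that process collagen were examined as lists, to be read beside the 10.2% higher and 8.28% lower of all measured genes. Chain modification and folding in the endoplasmic reticulum was covered by 23 measured genes, with 2 higher (8.70%, near the share of all genes) and 0 lower (median -0.13). They were the prolyl 4-hydroxylase subunit P4ha3, at 3.10 FPKM in f/f against 7.74 in d/d, and the prolyl 3-hydroxylase P3h2, known to act on type IV collagen, at 4.88 and 12.4. Among 7 measured genes for removal of propeptides, none was higher and 2 were lower (28.6%, median -0.21). The tolloid protease Tll1 was 6.61 and 0.365 FPKM, and Pcolce, which speeds the cleavage of the carboxyl end, was 189 and 77.3. Tll1 was measured through f/f alone, so that its call is tied to the minimum.

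The crosslinking list had 1 higher gene of 7 (14.3%) and none lower, with 6 of 7 ratios above 0 (median 0.74). The higher gene was the lysyl oxidase Loxl2, at 26.2 and 90.8 FPKM. Of 14 measured fibril-associated genes 2 were higher (14.3%) and 4 lower (28.6%), with a median of -0.49. The small proteoglycans Ogn and Aspn were 43.1 and 209 FPKM, and 14.3 and 49.7, while Fmod, also a small fibril-binding proteoglycan, was 7.12 and 0.472. Postn, periostin, was 207 FPKM in f/f against 30.5 in d/d. Ogn, Aspn and Fmod were named for their large ratios and differed in direction, and Fmod was measured through f/f alone. The related proteoglycans Dcn (-0.17), Lum (-0.16), Bgn (-0.62) and Prelp (-0.49) had ratios below 0 that stayed within 2-fold.

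Receptors and uptake genes numbered 12 measured, with 2 higher (16.7%) and 0 lower (median 0.13). Itga2, the integrin subunit of the epithelial and platelet collagen receptor, was 3.46 FPKM in f/f against 18.3 in d/d, and Adgrg6, an adhesion receptor that binds type IV collagen, was 2.01 and 8.88. The degradation list held 18 measured genes, of which 6 were higher (33.3%) and 3 were lower (16.7%), with a median of 0.68. These counts mix enzymes with their inhibitors, because the list also holds the metalloprotease inhibitors Timp1, Timp2, Timp3 and Timp4. Timp1 was among the 3 lower genes, at 81.6 FPKM in f/f against 29.1 in d/d. Timp2 (-0.15) and Timp3 (-0.99) were neither higher nor lower, and Timp4 was not measured. Mmp3, stromelysin, was 13.0 and 0.514 FPKM, whereas Mmp12, the macrophage elastase, was listed at 0 in f/f and had 4.62 FPKM in d/d. Mmp3 was measured through f/f alone. Mmp12 and Mmp10, also a higher gene at 0.281 and 1.72 FPKM, were measured through d/d alone. The calls of Mmp3, Mmp10 and Mmp12 are thus tied to the minimum. Mmp15, a membrane protease, was 8.71 and 40.4, and Pepd, which splits the proline dipeptides left by collagen breakdown, was 31.6 and 108.

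Stromal, muscle, vessel and epithelial markers were present in both libraries, as the labelled tissue has them, and their levels differed. The counts in all marker lists are to be read beside the 10.2% higher and 8.28% lower of all measured genes. Of 7 stromal markers 6 were lower (85.7%) and none was higher. Their summed level was 2042 FPKM in f/f against 560 in d/d, led by Vim at 1081 and 328 and Hoxa10 at 357 and 63.7. The fibrillar sum over the same libraries went from 3552 to 2791 FPKM. Among 7 smooth muscle markers 2 were lower (28.6%, sum 4911 and 3206 FPKM), with Tagln at 1515 and 1042 and Acta2 at 1211 and 1130.3. Endothelial markers were lower in 4 of 7 cases (57.1%, sum 350 and 164 FPKM), with Pecam1 at 84.7 and 43.0 and Cdh5 at 72.5 and 29.8. In the pericyte list 2 of 5 were lower (40%, sum 245 and 78.9 FPKM), with Rgs5 at 186 and 35.9 and Kcnj8 at 26.6 and 29.5.

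The remaining marker lists went both ways. Of 7 epithelial markers 6 were higher (85.7%, sum 245 and 1568 FPKM), with Epcam at 60.9 and 372 and Krt19 at 4.87 and 348. Macrophage markers were higher in 4 of 5 cases (80%, sum 431 and 1151 FPKM), with Lyz2 at 334 and 886 and Csf1r at 41.9 and 76.6. All 3 measured fat cell markers were higher (sum 2.96 and 102 FPKM), with Cfd at 0.0867 and 66.6 and Fabp4 at 2.67 and 28.9. Of these 3, Cfd and Adipoq were measured through d/d alone, so that their calls are tied to the minimum. Plin1 and Lep were listed at 0 in f/f and were not measured. Of 3 measured mesothelial markers 2 were lower (66.7%, sum 88.3 and 20.1 FPKM), with Wt1, which stroma also expresses, at 84.3 and 17.5 and Msln at 0.833 and 2.13. Wt1 thus held most of the mesothelial sum in both libraries. The other lower marker, Upk3b, was 1.87 and 0.332 FPKM and was measured through f/f alone, so that its call is tied to the minimum. The part of these cell types in the collagen differences was not tested.

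**Figure D4:**
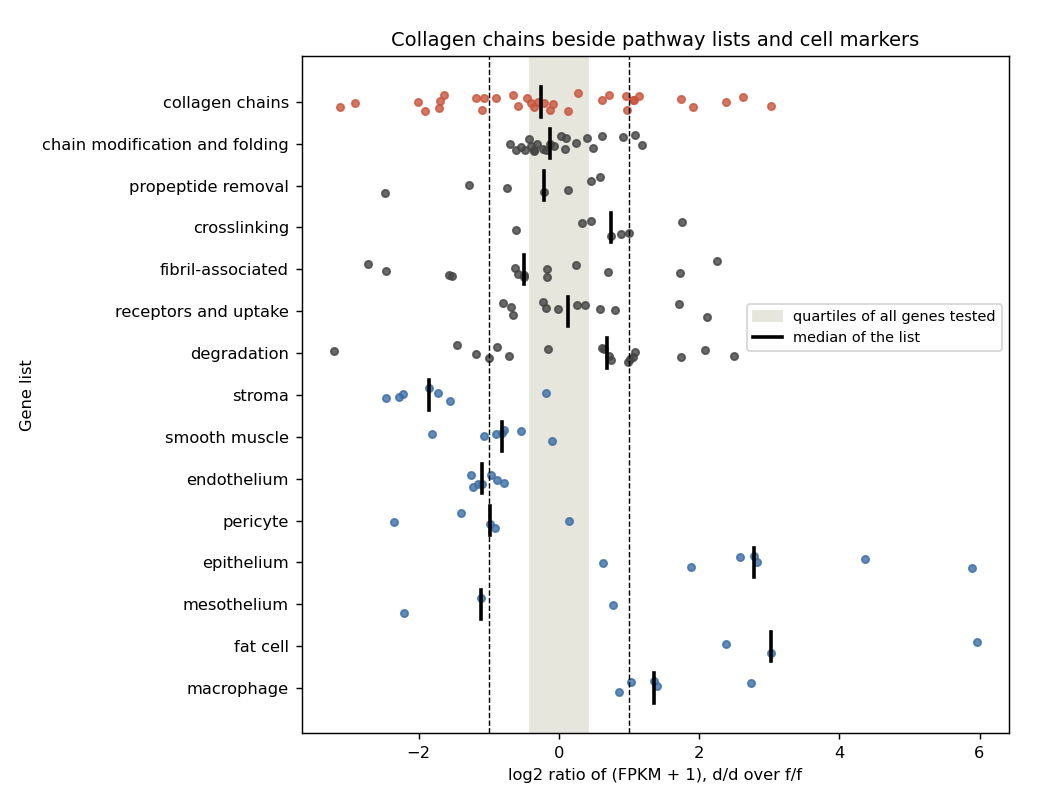
Log2 ratio of (FPKM + 1), d/d over f/f (horizontal axis), of each measured gene, with 1 row of points per list. Red points are collagen chains, dark points collagen pathway genes and blue points cell markers, with the black bar at the list's median, the shaded band at the quartiles of all genes measured (-0.41 and 0.41) and dashed lines at 2-fold. The chains spread from -3.11 to 3.03 around a median of -0.25, while 6 of the 7 stromal markers lie left of the lower dashed line.

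As sequences, the 44 members are long coding genes of many exons on 15 chromosomes. The longest coding transcript had a median of 5989 nt, from 2781 nt for Col26a1 to 11511 nt for Col12a1, and a median of 48 exons, from 3 in Col10a1 to 119 in Col7a1. The letters GGACT, a common core of the m6A consensus, were counted in these transcripts. Their density had a median of 1.77 per kb over the 34 measured chains and 1.05 per kb over 13755 measured coding genes. Every chain held at least one, whereas 1103 of the coding genes held none. Collagen transcripts were also longer and richer in G and C, with a median GC content of 55.9% against 50.3%.

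By direction the motif density differed little among chains, with a median of 1.77 per kb in the 8 higher chains, 1.69 in the 10 lower and 1.74 in the 16 neither higher nor lower. Single chains ranged from 0.608 per kb in Col12a1 to 4.03 in Col16a1. Col4a5 held 22 copies and Col4a3 held 23, and these chains differed in direction. A motif count does not show which sites carry m6A, which was not analysed here.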

How the data were processed

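Whole-uterus RNA was sequenced from 1 Mettl14f/f and 1 Mettl14d/d library, made with TRIzol and the TruSeq RNA kit per the labels' protocols. The authors deposited FPKM per gene, and the submitters' processing notes name HISAT2 2.2.1, Cufflinks 2.2.1 and mm10; the annotation release and strandedness are not stated in the sources used here. Cufflinks shares fragments between overlapping models, which can move values of the 13 members with an exon that overlaps another gene. Both files list 55483 rows, and rows that share a symbol were summed. Log2 ratios used a pseudocount of 1 FPKM and a minimum of 1 FPKM in at least one library, with Python 3.11.15 and pandas 2.3.3. Depth was fitted on genes with 1 transcript of at least 2000 nt, where 69.7% of 899 low values in f/f and 64.3% of 973 in d/d lay within 0.1 of a whole fragment number. Depth and fragment numbers are approximate and entered no comparison.

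With 1 library per genotype no test was run. The calculation was checked on simulated data. Every measured chain was named, with up to 4 genes past 2-fold (or the 2 most abundant) from each pathway list and the 2 most abundant of each marker list. Some list genes were named beyond this rule, among them Dcn, Lum, Bgn, Prelp and the Timp genes. The members and lists were chosen with earlier results of these data known. The listed symbols Ctage5 and Col21a1 had no match in the files. A further marker list is not reported here. Alternatives changed the filter, pseudocount, scaling, shared symbols and fold threshold.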

Additional observations from a re-analysis of the deposited data

How the results depend on the processing

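Of 264 values of the 34 measured chains under the alternatives, 251 kept their direction and their side of 2-fold and none reversed, and 23 chains did so under every alternative run for them. The changes of filter and of shared symbols could not alter a chain's ratio, so their values were kept by construction. Centring on the median of all genes (-0.01) moved every ratio by that small amount alone. The count of kept values therefore overstates how much was put to the test. The pseudocount of 5 FPKM, which shrinks low genes by its construction, gave 5 higher and 5 lower chains, beside 5.34% and 3.31% of all genes. Under it the summed-level ratio fell short of 2-fold for Col7a1 (anchoring fibril, -0.67), the short-chain network (0.90) and FACIT chains (-0.98), and Col4a3, Col4a4, Col4a5, Col5a3, Col7a1, Col9a3, Col11a1 and Col22a1 no longer passed. Scaling by the upper quartile put the collagen VI sum at 0.99, Col6a2 at 0.98 and Col5a3 at 0.96, with the median of all genes at -0.10. A pseudocount of 0.1 FPKM took Col11a2 (1.32) and Col20a1 (1.75) past 2-fold. After rescaling to TPM, Col9a3 was -0.93. A threshold of 1.5-fold gave 12 higher and 13 lower chains, beside 18.8% and 17.8% of all genes. Counts of the gene lists moved too. The pseudocount of 5 FPKM left 0 higher genes in chain modification and folding, 1 in receptors and uptake and 2 in degradation. It left 1 lower pericyte marker and 1 lower mesothelial marker. The pseudocount of 0.1 FPKM gave 2 higher crosslinking genes, 4 lower pericyte markers and 1 higher mesothelial marker. No paired analysis was possible because each genotype has 1 library, and for the same reason no replicate could be left out.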

Other observations

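Proteins that hold a collagen-like stretch but fall outside the collagen chain rule were listed after the data were seen. Of 25 measured, 2 were higher (8%) and 7 lower (28%) by at least 2-fold, with a median ratio of -0.07. The shares of all genes measured were 10.2% and 8.28%. Among the 7 lower genes, C1qtnf9, Fcna and Ccbe1 were measured through f/f alone, so that their calls are tied to the minimum. With a pseudocount of 5 FPKM, 1 gene was higher and 4 were lower, beside 5.34% and 3.31% of all genes. The ferritin receptor Scara5 was 54.7 FPKM in f/f against 4.72 in d/d, and Cthrc1, a secreted protein linked to collagen-producing fibroblasts, was 58.9 and 5.68. C1qtnf3 was 21.9 and 5.33 FPKM. Higher were Adipoq, the fat cell hormone adiponectin, at 0.202 and 5.26 FPKM, and the surfactant protein Sftpd at 33.9 and 91.0. Adipoq was measured through d/d alone and is also counted among the fat cell markers above. The complement genes C1qa, C1qb and C1qc, which macrophages express, had ratios of 0.79, 0.85 and 0.80 and did not pass 2-fold.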
